A study of Mus musculus with 6 samples.

Results

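The genes described here are 9 members of the calcium-calmodulin signalling system, taken by symbol from a long-read count table of mouse brain. They are the calmodulin genes Calm2 and Calm3, the calmodulin-binding gene Nrgn, the 4 CaMKII genes Camk2a, Camk2b, Camk2d and Camk2g, and the upstream and downstream kinase genes Camkk2 and Camk4. All 9 were found, each under 1 identifier, among 24459 genes, and 90 of 75457 isoforms belonged to them. The samples were brain tissue next to the haematoma of mice labelled wild type, collected on day 5 after intracerebral haemorrhage (ICH). One group of 3 libraries came from mice given TEPP-46, an activator of the pyruvate kinase isoform PKM2, and the other group of 3 from mice given vehicle, each for 5 days in a row. Both groups carry the haemorrhage, and no library without one was analysed here. The labels name no strain, sex, age or number of animals per library, and the p-values reflect how far single libraries differ, which may be technical.

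Calmodulin is a small calcium sensor with EF-hand loops that bind calcium and then wrap around target enzymes. CaMKII is a large holoenzyme built from alpha, beta, gamma and delta subunits (Camk2a, Camk2b, Camk2g and Camk2d), and the alpha and beta forms are abundant in forebrain neurons, where the kinase takes part in synaptic plasticity. Neurogranin, the product of Nrgn, holds calmodulin at low calcium through an IQ motif in the dendrites of forebrain neurons. CaMKK2 phosphorylates CaMKIV, which acts in the nucleus on CREB, and also AMPK, the cell's energy sensor.

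Calm2 (chromosome 17, 87433412 to 87446935) and Calm3 (chromosome 7, 16915379 to 16924114) encode the same protein with different bases. The first 120 coding bases of each are shown 5′ to 3′ because the bases, not the protein, tell the genes apart. Capitals mark the 18 bases that differ between Calm2 and Calm3 in this stretch, and bases 61 to 96 encode the first calcium-binding loop. All positions and transcripts are from GENCODE on GRCm38.
Calm2: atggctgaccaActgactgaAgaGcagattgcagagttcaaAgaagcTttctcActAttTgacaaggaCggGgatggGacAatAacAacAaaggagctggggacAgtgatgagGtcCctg
Calm3: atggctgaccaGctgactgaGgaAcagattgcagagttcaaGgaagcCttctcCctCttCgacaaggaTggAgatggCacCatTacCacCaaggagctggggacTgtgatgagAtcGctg
Over the whole coding sequence, 78 of 447 bases differ between Calm2 and Calm3, which leaves an identity of 82.55%. The 78 differences touch 76 of 149 codons, 74 of the 78 lie at the third codon position, and the translated proteins are identical. The longest stretch shared by both without a difference is 17 bases.

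The IQ motif of Nrgn (chromosome 9, 37544492 to 37552904) is shown because it is the part that binds calmodulin. The sequence covers coding bases 82 to 144 of 234, with the 33 bases of the motif in capitals, and it was found by matching the translation to an IQ pattern.
Nrgn: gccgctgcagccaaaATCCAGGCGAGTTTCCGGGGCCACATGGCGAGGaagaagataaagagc

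Camk2a, Camk2d and Camk2g carry a 33-base cassette exon in the linker between the kinase and association domains, whose basic codons form part of a nuclear localisation signal. It is shown for Camk2d and Camk2g because the isoforms below are split by it, with the 3 codons for lysine or arginine in capitals. The Camk2d exon lies at chr3:126802937-126802969 on the plus strand, and the Camk2g exon at chr14:20747819-20747851 on the minus strand, both within the coding part. The exons differ at 7 of 33 bases.
Camk2d: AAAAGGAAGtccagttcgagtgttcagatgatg
Camk2g: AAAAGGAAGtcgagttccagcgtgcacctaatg

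Total gene counts were between 5286426 and 6025064 per library. Libraries are named by the column headings, with C for vehicle and T for TEPP-46, and values per library follow the order C1, C2, C4 and then T1, T2, T3. Neuron markers were present in every library, with a summed level of 8 genes between 3578 CPM (counts per 1000000 counts of the library) in C2 and 5060 CPM in T1. The libraries differed in markers of other cells. Summed markers of oligodendrocytes (6 genes) were lowest in C4 with 5333 CPM, the rest having 13083 to 15257 CPM. Summed macrophage markers (6 genes) ranged from 136.4 CPM in C4 to 4366 CPM in C2, where Spp1 alone was at 3734 CPM. The part of these cells in the results below was not tested. In bulk tissue, fewer cells of a type and less RNA per cell cannot be told apart. CPM is not divided by transcript length, so levels are compared between libraries, not between genes.

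With all 6 libraries, the fitted level was lower in TEPP-46 for 8 of the 9 genes and higher for Camk2a, and no gene passed the test. The median log2 fold change of the 9 was -0.14, beside 0.01 over the 14441 genes tested. With p-values adjusted by the Benjamini-Hochberg method over all genes, edgeR called 0 of 9, with adjusted p-values from 0.764 to 0.998, against a background of 0% of genes. At an unadjusted p under 0.05, 1 of 9 was lower, Camk2d, against 4.05% of all genes, and 0 of 9 were higher, against 1.88% (5.93% in either direction). DESeq2 called 0 of 9, against 0.582% of genes. In none of the 9 did the 3 TEPP-46 libraries lie entirely above or below the 3 vehicle libraries, which they did in 11.4% of all genes (TEPP-46 above in 5.67%, vehicle above in 5.76%). The authors' deposited table calls none of the 9 either, and gives its smallest p, 0.0235, for Camk2d.

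**Figure D1:**
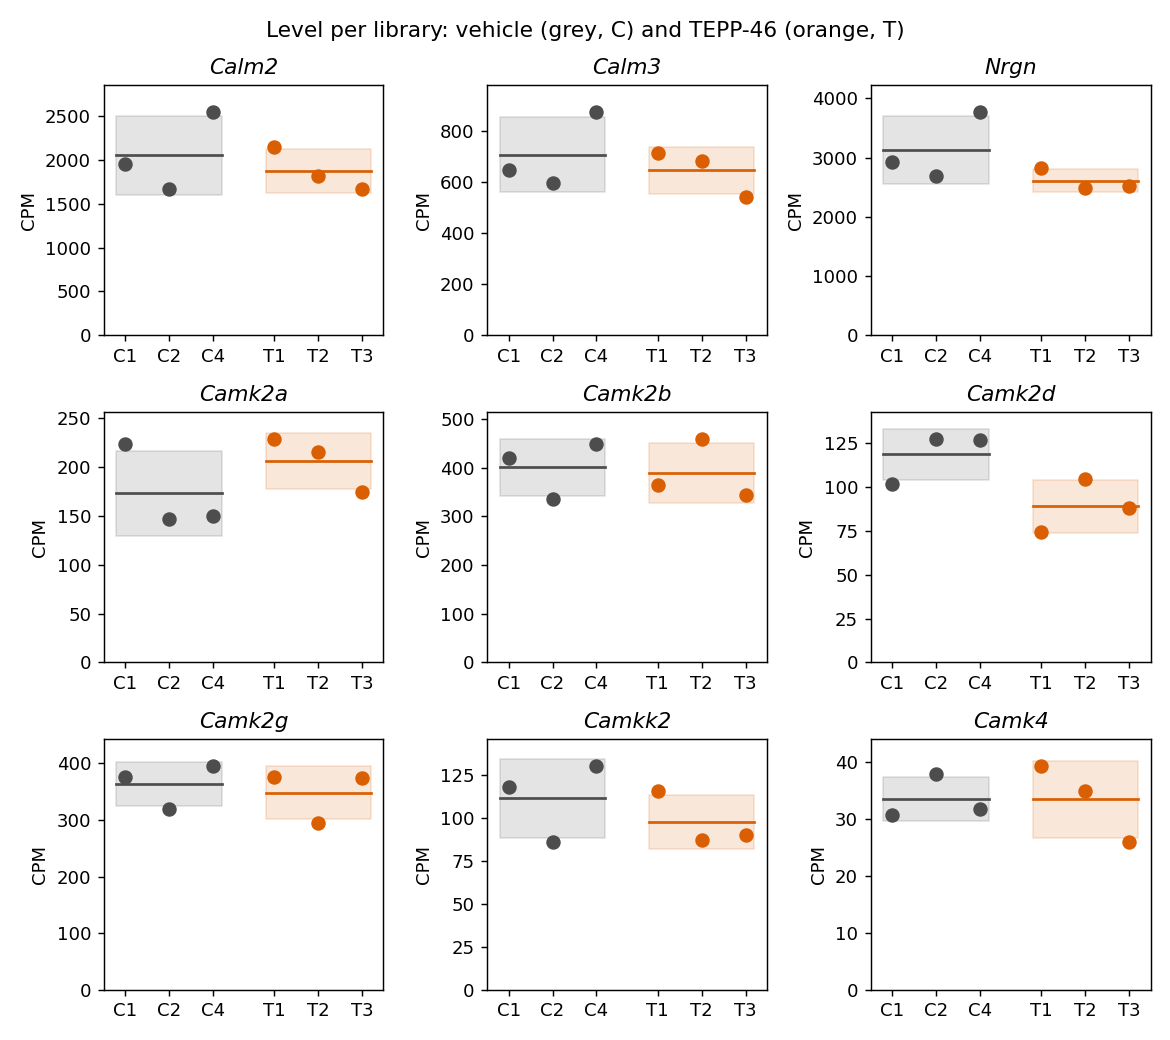
Level of each of the 9 genes in CPM (vertical axes, from 0) in the 3 vehicle libraries (grey, C1, C2, C4) and the 3 TEPP-46 libraries (orange, T1, T2, T3); lines are group means and bands ± SD. The groups overlap in every panel, and C4 is the highest library for Calm2, Calm3, Nrgn, Camk2g and Camkk2.

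Calm2 was at 1950, 1666 and 2548 CPM in vehicle and at 2152, 1820 and 1662 CPM under TEPP-46. The vehicle library C4 was highest, and the other vehicle libraries lay inside the TEPP-46 range. Group means were 2055 ± 450.4 CPM in vehicle and 1878 ± 250.2 CPM under TEPP-46 (SD, n = 3 each), and the fitted log2 fold change was -0.14 with SE 0.17 (edgeR adjusted p = 0.986). C4 was also the highest library for Calm3, with 649.1, 599.4 and 877.0 CPM in vehicle and 713.7, 684.4 and 541.9 CPM under TEPP-46. Its log2 fold change was -0.14 with SE 0.17 (edgeR adjusted p = 0.986). Both values depended on single libraries. Without C4 the log2 fold changes were 0.044 for Calm2 and 0.040 for Calm3, in the other direction. Without T3 they were -0.059 for Calm2 and -0.029 for Calm3.

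The balance of the 2 genes hardly varied. Calm2 took 75.0, 73.5 and 74.4% of the summed Calm2 and Calm3 counts in vehicle and 75.1, 72.7 and 75.4% under TEPP-46. Means were 74.3 ± 0.746% in vehicle and 74.4 ± 1.504% under TEPP-46 (SD, n = 3 each). An exact permutation test, two-sided, gave p = 0.9, where 0.1 is the smallest that 3 against 3 allows.

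Nrgn was at 2927, 2683 and 3775 CPM in vehicle and at 2831, 2488 and 2513 CPM under TEPP-46. C4 again stood highest, and T1 lay between C2 and C1. The means were 3128 ± 573 CPM in vehicle and 2611 ± 191 CPM under TEPP-46 (SD, n = 3 each), and its log2 fold change was -0.27 with SE 0.14 (unadjusted p = 0.0818, edgeR adjusted p = 0.896). The value was -0.11 without C4 and -0.37 without C2, so its direction held in all 6 fits that left out 1 library and its size did not.

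Camk2a (chromosome 18, 60925618 to 60988152), the alpha subunit gene of forebrain excitatory and striatal neurons, was the one member with a higher fitted level in TEPP-46. It was at 223.4, 146.7 and 149.4 CPM in vehicle and at 228.7, 215.0 and 174.3 CPM under TEPP-46. The vehicle libraries split, with C1 near the top and C2 and C4 below every TEPP-46 library. Summed choroid plexus and ependyma markers (5 genes) split the vehicle libraries the same way, with 4975, 220.7 and 183.9 CPM in vehicle. Under TEPP-46 they were at 3976, 2248 and 3927 CPM. Most of the sum in C1 was Ttr, at 4053 CPM. Thalamic neuron markers (5 genes) were at 188.0, 75.6 and 42.0 CPM in vehicle and 221.4, 105.1 and 159.2 CPM under TEPP-46. Striatal projection neuron markers (9 genes) ran otherwise, lowest in C1 and highest in C2. They were at 675.7, 1858 and 986.5 CPM in vehicle and 1240, 1564 and 1330 CPM under TEPP-46. The part of these cell types in the levels and the share of Camk2a was not tested. The log2 fold change of Camk2a was 0.24 with SE 0.18 (edgeR adjusted p = 0.971), and it was 0.46 without C1, 0.14 without C2 and 0.15 without C4.

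Camk2d (chromosome 3, 126596302 to 126846326), the delta subunit gene, which is also expressed outside neurons, was the member with the largest fitted difference. Its levels were 102.1, 127.5 and 126.9 CPM in vehicle and 74.5, 104.6 and 88.0 CPM under TEPP-46. The groups overlapped only through C1 and T2. Means were 118.8 ± 14.5 CPM in vehicle and 89.0 ± 15.1 CPM under TEPP-46 (SD, n = 3 each), and the fitted log2 fold change was -0.43 with SE 0.16 (unadjusted p = 0.0275, edgeR adjusted p = 0.764). Leaving out 1 library at a time kept the log2 fold change between -0.57 and -0.31, and the unadjusted p lay between 0.0129 and 0.102, under 0.05 in 2 of 6 fits.

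The other subunit genes were close to even between groups. Camk2b (chromosome 11, 5969644 to 6066362), whose beta subunit binds actin, was at 401.0 ± 59.0 CPM in vehicle and 389.0 ± 61.7 CPM under TEPP-46 (SD, n = 3 each), with single libraries from 334.9 CPM in C2 to 459.2 CPM in T2. Camk2g (chromosome 14, 20734875 to 20794088), the gamma subunit gene, was at 363.7 ± 39.6 and 348.3 ± 47.0 CPM, from 294.0 CPM in T2 to 395.4 CPM in C4. Their log2 fold changes were -0.05 with SE 0.15 and -0.08 with SE 0.14 (edgeR adjusted p = 0.997 for each). Camk2b was thus highest and Camk2g lowest in the same library, T2.

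**Figure D2:**
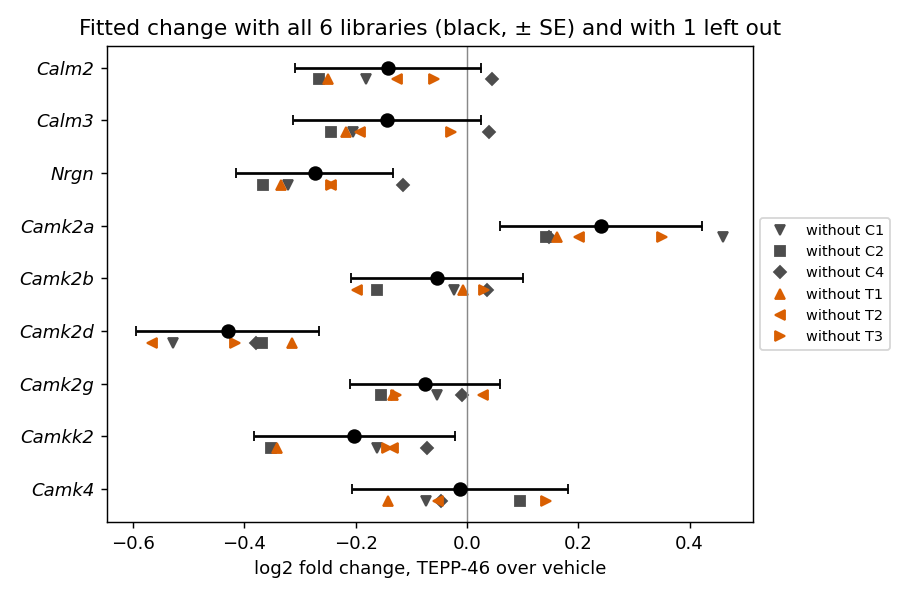
Log2 fold change of TEPP-46 over vehicle for each gene (horizontal axis), fitted with edgeR on all 6 libraries (black points, bars ± SE) and with each library left out (grey symbols for vehicle, orange for TEPP-46). Camk2d stays between -0.57 and -0.31, Camk2a between 0.14 and 0.46, and Calm2 and Calm3 cross 0 without C4.

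The RNA of the 4 CaMKII genes was described by the share of each gene in their summed counts. These shares are not corrected for transcript length and do not measure the subunits of the protein. Camk2a took 19.9, 15.8 and 13.3% in vehicle and 21.9, 20.04 and 17.8% under TEPP-46. The mean was 16.4 ± 3.32% in vehicle and 19.9 ± 2.07% under TEPP-46 (SD, n = 3 each), a difference of 3.56 percentage points (exact two-sided permutation p = 0.2, where 0.1 is the smallest possible). Only C1 among the vehicle libraries reached the TEPP-46 range. Camk2d took 11.4 ± 2.32% and 8.62 ± 1.34%, Camk2b 37.8 ± 2.01% and 37.6 ± 4.52%, and Camk2g 34.4 ± 0.869% and 33.9 ± 5.72% (vehicle and TEPP-46, SD, n = 3 each), which are given without a test. The Camk2a difference was positive in each fit with 1 library left out, from 2.05 percentage points without C4 to 5.34 without C1.

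**Figure D3:**
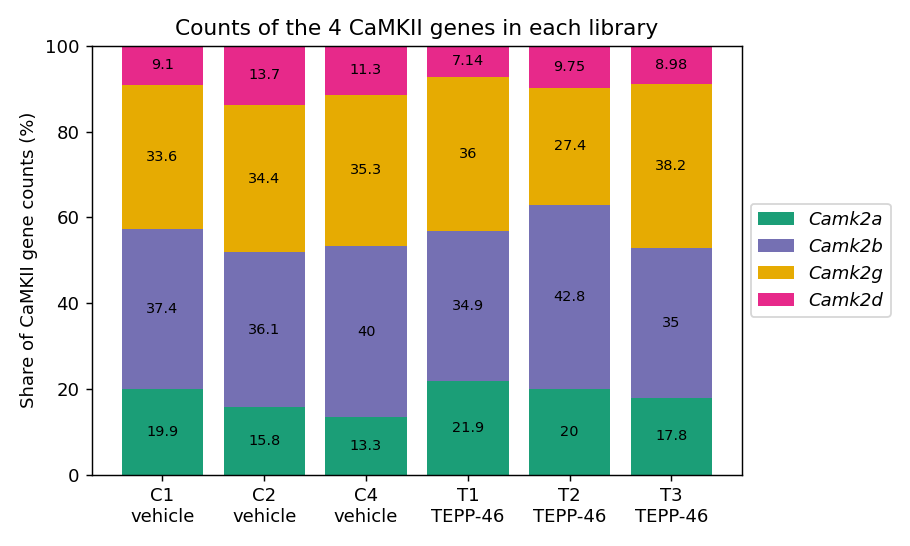
Share of Camk2a, Camk2b, Camk2g and Camk2d in the summed counts of the 4 CaMKII genes (vertical axis, percent) in each library (horizontal axis). Camk2a ranges from 13.3% in C4 to 21.9% in T1 and Camk2d from 7.14% in T1 to 13.7% in C2.

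Camkk2 (chromosome 5, 122731170 to 122779409) was at 118.0, 85.6 and 129.96 CPM in vehicle and at 115.5, 87.0 and 89.7 CPM under TEPP-46. Vehicle libraries C1 and C4 and TEPP-46 library T1 were high, and C2, T2 and T3 low, so high and low libraries occurred in both groups. The log2 fold change was -0.20 with SE 0.18 (edgeR adjusted p = 0.981), and it was -0.073 without C4, -0.34 without T1 and -0.35 without C2. Camk4 (chromosome 18, 32934931 to 33191228), the nuclear kinase that CaMKK2 activates, had the same mean in both groups, 33.5 ± 3.87 CPM in vehicle and 33.5 ± 6.81 CPM under TEPP-46 (SD, n = 3 each). Its libraries ranged from 26.0 CPM in T3 to 39.3 CPM in T1, both in the TEPP-46 group, with a log2 fold change of -0.01 and SE 0.19 (edgeR adjusted p = 0.998).

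The summed level of all 9 genes was 6797, 6001 and 8482 CPM in vehicle and 6895, 6187 and 5814 CPM under TEPP-46. C4 was the highest and T3 the lowest. The means were 7093 ± 1267 CPM in vehicle and 6299 ± 549 CPM under TEPP-46 (SD, n = 3 each; p = 0.5 by an exact permutation test, two-sided). The difference of -794 CPM shrank to -100.0 CPM without C4 and grew to -1341 CPM without C2 (p = 1 and p = 0.4 by the same exact permutation test). C4, the highest in 5 of the 9 genes, was also the library with the lowest oligodendrocyte markers given above, and with 437.9 CPM of summed microglia markers (7 genes) against 689.9 to 1503 CPM elsewhere. Summed markers of cortical and hippocampal excitatory neurons (7 genes) were highest in C4. Several of the 9 genes are known to be expressed in these cells. The sums were 1007, 644.5 and 1234 CPM in vehicle and 887.8, 835.0 and 649.0 CPM under TEPP-46. Within the list, Neurod2 and Neurod6 were highest in C1, and Slc17a7 was about equal in C1 and C4, at 378.9 and 381.7 CPM. The log2 fold change was positive for 1 and negative for 6 of the 7 markers (median -0.34). At an unadjusted p under 0.05, 2 were lower, Neurod2 and Rtn4rl2, against 4.05% of all genes, and neither passed the adjusted test. The 7 markers were listed with earlier results of these data known, so their counts are a description. C2, the lowest library for 3 of the 9 genes, was also lowest for these markers, with 644.5 CPM beside 649.0 CPM in T3. T3 was the lowest library for Calm2, Calm3 and Camk4, and Camk2d was highest in C2. Camk2a was near its lowest level in C4, at 149.4 CPM beside 223.4 CPM in C1. The part of these markers in the levels of the 9 genes was not tested.

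Genes whose profile over the 6 libraries was most like that of 3 members were found by root mean square distance of centred log2(CPM + 1) among 3248 genes with a mean of at least 50 CPM. The nearest to Calm2 were Lancl1 (0.043), Ndufv1 (0.048), a subunit of respiratory complex I, and Atp6v1d (0.057), a subunit of the vesicular proton pump. Nearest to Nrgn were Gipc1 (0.030), Cdkn2d (0.035) and Eri3 (0.048), and nearest to Camk2a were Map4 (0.079), a microtubule-associated protein gene, Wbp11 (0.079) and the receptor phosphatase gene Ptprd (0.080). The median distance of all compared genes was 0.242 from Calm2, 0.238 from Nrgn and 0.306 from Camk2a. The 6 libraries share a tissue and similar depth, and these values are a description.

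Of the 90 isoforms of the 9 genes, 57 were annotated and 33 were new, without a reference identifier, and 66 had enough counts to be tested. Isoform counts summed to the gene count in every library for all 9 genes. By edgeR with Benjamini-Hochberg adjustment over 33854 isoforms, 0 of 66 were called (smallest adjusted p = 0.447), against a background of 0%, and DESeq2 called 0 against 0.443%. At an unadjusted p under 0.05, 7 of 66 were lower in TEPP-46, against 3.90% of all isoforms, and 0 were higher, against 1.88% (5.77% in either direction). The 7 were 3 of Camk2d, 3 of Nrgn and 1 of Camkk2, the genes whose own log2 fold changes were -0.43, -0.27 and -0.20. Some isoforms had almost the same counts: Camk4-203 and Camk4-204 differed by at most 1 count in any library, and 2 new Nrgn isoforms by at most 1.51%. Isoforms of 1 gene divide the same reads and are not independent. In 3 of 66 the groups did not overlap, each with vehicle above and each of Camk2d (ONT.7912.5, Camk2d-206 and Camk2d-203), beside 10.9% of all isoforms (5.18% with vehicle above, 5.73% with TEPP-46 above).

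In Camk2d, every tested isoform had a negative log2 fold change. The new isoform ONT.7912.5 was at 19.1, 23.5 and 23.5 CPM in vehicle and at 10.5, 15.7 and 13.8 CPM under TEPP-46. All vehicle libraries lay above all TEPP-46 libraries, and the log2 fold change was -0.76 with SE 0.20 (unadjusted p = 0.00245, edgeR adjusted p = 0.447). Camk2d-206, the annotated isoform with the most counts, was at 19.9, 26.0 and 22.7 CPM in vehicle and 11.3, 17.6 and 17.1 CPM under TEPP-46, also without overlap (log2 fold change -0.61, SE 0.21, unadjusted p = 0.0136, edgeR adjusted p = 0.690). Camk2d-228, with the longest annotated coding length among the tested forms at 1599 bases, was at 16.3, 16.7 and 19.1 CPM in vehicle against 14.1, 19.0 and 13.9 CPM, with overlap and a log2 fold change of -0.17 (SE 0.19, edgeR adjusted p = 0.999). A second new isoform, ONT.7912.1, was at 11.2, 16.3 and 16.1 CPM in vehicle against 8.80, 12.6 and 10.2 CPM, and its groups overlapped (log2 fold change -0.50, SE 0.23, edgeR adjusted p = 0.858). Leaving out 1 library at a time kept the unadjusted p of ONT.7912.5 between 0.00180 and 0.0138.

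Isoform usage, the division of a gene's counts among its isoforms, was tested with diffSpliceDGE of edgeR, and 0 of 9 genes were called, against a background of 0.0131% of 7639 genes. The unadjusted Simes p was 0.520 or more for each member, while 0.641% of all genes fell under 0.05 before adjustment. The delta forms that end in a 64-base coding stretch (chr3:126841485-126841548) took 40.2, 37.4 and 40.0% of annotated Camk2d counts in vehicle and 41.4, 45.0 and 37.6% under TEPP-46. The groups overlapped, and this share is given without a test.

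**Figure D4:**
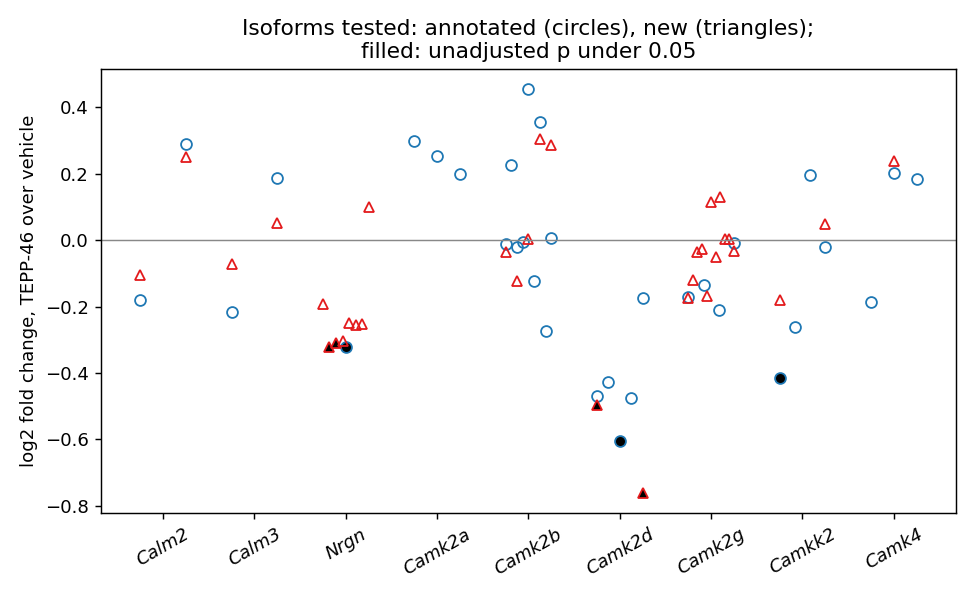
Log2 fold change of TEPP-46 over vehicle (vertical axis) for the 66 tested isoforms, by gene (horizontal axis); circles are annotated and triangles new isoforms, and filled symbols have an unadjusted p under 0.05. All 7 filled symbols lie below 0, in Nrgn, Camk2d and Camkk2, and none passed the adjusted test.

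The 33-base exon printed above divided the CaMKII genes in different proportions. Annotated isoforms that hold it took 47.2, 44.7 and 40.4% of annotated Camk2g counts in vehicle and 45.3, 42.8 and 44.1% under TEPP-46. The means were 44.1 ± 3.47% in vehicle and 44.1 ± 1.27% under TEPP-46 (SD, n = 3 each). Most of these counts were of Camk2g-201. In Camk2a, an exon of the same length with the same run of basic codons was in Camk2a-201 and Camk2a-204, at 28.6 ± 1.06% of counts in vehicle and 30.1 ± 0.608% under TEPP-46 (SD, n = 3 each), with a range over all libraries of 27.8 to 30.8%. In Camk2d, 1 annotated isoform held the exon, Camk2d-205, with 3, 6 and 2 counts in vehicle and 8, 10 and 5 under TEPP-46. That isoform did not pass the filter on low counts. New isoforms, whose exons were not examined here, took 73.5 to 76.0% of Camk2g counts, 25.8 to 31.2% of Camk2d counts and 0% of Camk2a counts, so the Camk2g share covers the smaller part of its counts.

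The main transcripts of the calmodulin genes dominated. Calm2-201 took 85.8, 87.1 and 88.5% of Calm2 counts in vehicle and 86.5, 83.6 and 87.5% under TEPP-46. Calm2-204, a shorter transcript of 842 bases with an annotated coding length of 339 bases against 447, took 2.30, 1.72 and 0.683% in vehicle and 2.07, 2.39 and 1.49% under TEPP-46. It was lowest in C4, as was the new isoform ONT.5653.8 at 14.8 CPM against 28.4 to 57.9 CPM elsewhere. Calm3-202, annotated as subject to nonsense-mediated decay, took 3.56% of Calm3 counts in vehicle and 4.41% in TEPP-46 on average, with the lowest value, 2.78%, again in C4. New isoforms held 79.6 to 80.3% of Nrgn counts, and Nrgn-201, the 1 annotated isoform, was at 597.2, 538.9 and 770.8 CPM in vehicle and 558.8, 493.6 and 504.0 CPM under TEPP-46 (log2 fold change -0.32, SE 0.14, unadjusted p = 0.0372, edgeR adjusted p = 0.826). The new isoforms ONT.12921.2 and ONT.12921.4 had log2 fold changes of -0.32 and -0.31, and C4 was their highest library too. Without C4 the log2 fold changes were -0.16 for Nrgn-201, -0.16 for ONT.12921.2 and -0.14 for ONT.12921.4 (unadjusted p = 0.173, 0.173 and 0.243 by edgeR).

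Camkk2-201, the longest annotated Camkk2 transcript at 4861 bases, was at 51.9, 39.8 and 66.8 CPM in vehicle and at 46.8, 38.8 and 35.4 CPM under TEPP-46. C4 was again highest, and the groups overlapped (log2 fold change -0.41, SE 0.19, unadjusted p = 0.0484, edgeR adjusted p = 0.858). The value was -0.21 without C4 and -0.59 without C2, and the unadjusted p was under 0.05 in 2 of 6 fits that left out 1 library. The other well-covered annotated form, Camkk2-211, had 13.2 to 17.4 CPM in all libraries and a log2 fold change of -0.02. In Camk2b, Camk2b-209 took 29.6, 29.7 and 27.4% of counts in vehicle and 24.5, 24.1 and 26.8% under TEPP-46, with a log2 fold change of -0.27 and SE 0.14 (edgeR adjusted p = 0.929). All 3 vehicle shares of Camk2b-209 lay above the TEPP-46 shares, while the CPM values overlapped and the usage test did not call the gene. Shares were also separate for other isoforms, such as ONT.7912.5 and Nrgn-201 with vehicle above. Camkk2-204 went the other way, at 5.33 to 5.87% in vehicle and 6.95 to 8.19% under TEPP-46. How often shares separate over all isoforms was not counted. In Camk2a, Camk2a-203 and Camk2a-201 had log2 fold changes of 0.20 and 0.30 (edgeR adjusted p = 0.999 and 0.986). Isoforms named outside the rule on counts and p-values, such as Calm2-204, Calm3-202, Camk2d-205 and Camkk2-211, were chosen after their values were seen.

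Mean isoform length was compared after the isoform counts had been seen. The count-weighted mean length of annotated isoforms was highest in C4 for 7 of the 8 genes with at least 2 annotated isoforms. For Camk2g it was 3493 bases in C4 and 3237 to 3366 bases in the other libraries, for Camk2b 3848 against 3721 to 3763 bases, and for Camkk2 4316 against 4034 to 4230 bases. Camk4 was the exception, with its highest mean length, 2458 bases, in T3. C4 was also the most frequent longest library over all 9618 tested genes with at least 2 annotated isoforms, at 26.3% of genes, and at 30.6% of the 4740 with a mean of 20 CPM or more, while each other library was the longest for 9.37 to 18.9% of those. The 7 of 8 was noticed in these counts and has no test. Over all annotated isoforms together, the count-weighted mean length in C4 was 2464 bases. That lay inside the range of the libraries, from 2370 bases in C2 to 2536 bases in T1. New isoforms, which took 73.5 to 76.0% of Camk2g counts, do not enter these lengths.

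**Figure D5:**
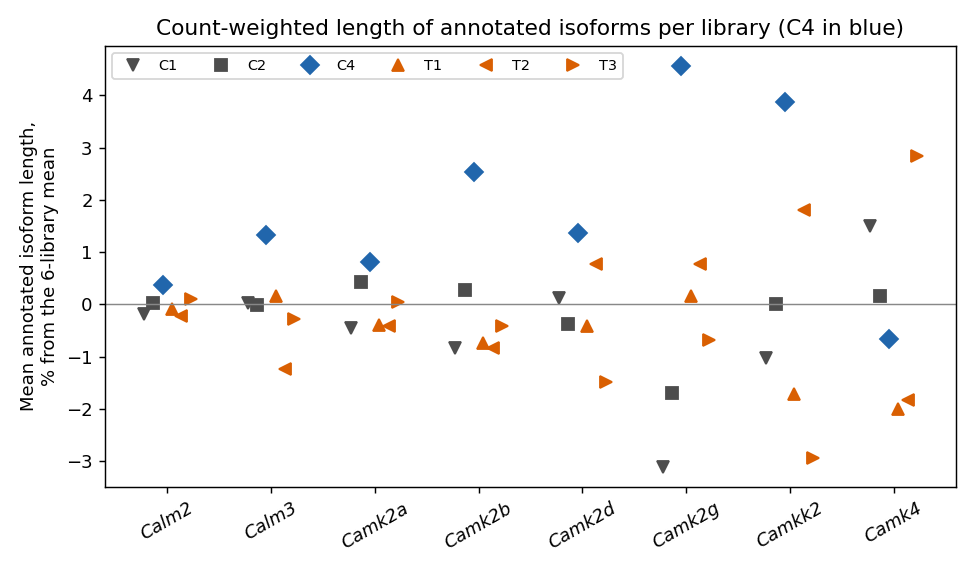
Count-weighted mean length of a gene's annotated isoforms in each library, as percent difference from the mean of the 6 libraries (vertical axis), for the 8 genes with at least 2 annotated isoforms (horizontal axis). C4 (blue diamonds) is highest in 7 of the 8 genes, and Camk4 is highest in T3. Over all 9618 genes of this kind C4 was the longest library in 26.3%.

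Other genes of the pathway were read from 8 lists of partners and targets, 110 genes, of which 107 were tested. None was called by edgeR's adjusted test, 3 higher and 8 lower ones had an unadjusted p under 0.05 (1.88% and 4.05% of all genes), and 50 had a positive and 57 a negative log2 fold change, with a median of -0.03. The groups did not overlap in 10 of the 107, beside 11.4% of all genes, so the genes named below for this are no more than that background. The list of other CaM kinases and CaMKII inhibitors had 3 positive and 7 negative of 10. In it Camk1, a cytoplasmic kinase that CaMKK also activates, was at 91.8, 108.1 and 116.2 CPM in vehicle and at 45.1, 72.6 and 83.5 CPM under TEPP-46. All vehicle libraries lay above all TEPP-46 libraries, with a log2 fold change of -0.67 and SE 0.22 (unadjusted p = 0.0135, edgeR adjusted p = 0.657), and -0.45 without T1. Camk2n1, which inhibits CaMKII, reached 2063 CPM in C4 and stayed within 775.2 to 1181 CPM in the rest, and its log2 fold change turned from -0.28 to 0.27 without C4.

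Among other calmodulin-binding IQ and reservoir proteins, 6 of 12 were positive and 6 negative. Marcksl1, a membrane-bound calmodulin-binding protein gene, was at 129.4 ± 9.06 CPM in vehicle and 77.0 ± 33.04 CPM in TEPP-46 without overlap, and its relative Marcks at 23.8 ± 8.04 and 14.7 ± 3.76 CPM with overlap (SD, n = 3 each; unadjusted p = 0.0342 and 0.0331, edgeR adjusted p = 0.785 and 0.781). Their log2 fold changes were -0.76 and -0.71, beside -0.44 without T1 for Marcksl1 and -0.39 without C4 for Marcks. Pcp4, a small IQ-motif protein gene like Nrgn, was at 521.6 ± 97.8 and 564.9 ± 101 CPM, and Gap43, the axonal growth protein gene with an IQ motif, at 187.5 ± 26.2 and 174.0 ± 5.49 CPM.

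Calcineurin, the calmodulin-dependent phosphatase, and its regulators had 6 positive and 7 negative of 13 tested. Rcan2, a calcineurin regulator, was at 41.2, 40.7 and 37.1 CPM in vehicle and 52.1, 54.2 and 49.4 CPM under TEPP-46. All its TEPP-46 libraries lay above all vehicle libraries (log2 fold change 0.38, SE 0.14, unadjusted p = 0.0224, edgeR adjusted p = 0.724). Ppp3cc, the gene of a catalytic subunit, was low, at 6.69 ± 3.90 CPM in vehicle and 2.89 ± 0.731 CPM under TEPP-46 (SD, n = 3 each; unadjusted p = 0.0220, edgeR adjusted p = 0.717), and its log2 fold change of -1.21 was -0.63 without C4. The regulatory subunit gene Ppp3r1 was at 544.3 ± 107 and 443.5 ± 73.4 CPM, and Akap5, which anchors calcineurin at synapses, at 2544 ± 817 and 2344 ± 341 CPM.

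Other enzymes and pumps that bind calmodulin had 8 positive and 12 negative of 20, none with an unadjusted p under 0.05. In that list the plasma membrane calcium pump genes Atp2b1 and Atp2b2 were at 878.2 ± 114 and 597.1 ± 173 CPM in vehicle and at 869.2 ± 70.6 and 720.5 ± 250 CPM in TEPP-46. Other EF-hand proteins of neurons had 5 positive and 11 negative of 16: Hpcal1, a neuronal calcium sensor gene, was at 100.9 ± 4.94 CPM in vehicle and 78.7 ± 12.6 CPM in TEPP-46, and Efhd2 at 40.3 ± 17.7 and 24.4 ± 0.263 CPM, both without overlap (SD, n = 3 each; unadjusted p = 0.0329 and 0.0252, edgeR adjusted p = 0.781 and 0.747). Their log2 fold changes of -0.37 and -0.74 were -0.25 without T1 for Hpcal1 and -0.32 without C4 for Efhd2. The neuronal sensor genes Vsnl1 and Ncald were at 376.7 ± 69.9 and 751.1 ± 181 CPM in vehicle and at 385.6 ± 62.0 and 725.7 ± 162 CPM in TEPP-46. CaMKII partners and substrates at synapses had 10 positive and 4 negative of 14, with the scaffold gene Dlg4 at 757.6 ± 123 and 916.4 ± 169 CPM and Syn1, a vesicle phosphoprotein gene, at 248.0 ± 35.2 and 237.9 ± 32.0 CPM.

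Downstream of CaMKIV, the CREB list had 8 positive and 3 negative of 11 tested. Arc, an activity-induced synaptic gene, was at 46.4, 25.3 and 47.5 CPM in vehicle and 88.3, 43.4 and 62.9 CPM under TEPP-46, with overlap through T2 (log2 fold change 0.70, SE 0.30, unadjusted p = 0.0464, edgeR adjusted p = 0.837), and 0.41 without T1 and 0.46 without C2. The CREB coactivator gene Crtc1 was at 105.7 ± 20.2 and 97.5 ± 14.5 CPM and the neurotrophin gene Bdnf at 62.6 ± 25.2 and 58.6 ± 14.9 CPM. Downstream of CaMKK2, the AMPK list had 4 positive and 7 negative of 11 tested. Prkaa1, a catalytic subunit gene of AMPK, was at 13.7, 13.0 and 6.43 CPM in vehicle and at 17.3, 18.3 and 18.1 CPM under TEPP-46, without overlap (log2 fold change 0.68, SE 0.28, unadjusted p = 0.0356, edgeR adjusted p = 0.793), and 0.41 without C4. Stk11, the gene of the other main AMPK kinase LKB1, was at 60.9 ± 29.9 CPM in vehicle and 30.4 ± 6.64 CPM in TEPP-46 with overlap, and Strada, its pseudokinase partner gene, at 24.4 ± 3.81 and 17.7 ± 2.68 CPM without (SD, n = 3 each; unadjusted p = 0.0177 and 0.0425, edgeR adjusted p = 0.698 and 0.822). The log2 fold change of Stk11 was -1.01, and -0.58 without C4. Prkag2, a regulatory subunit gene of AMPK, was at 106.6 ± 27.3 and 88.8 ± 8.35 CPM, and Tsc2, an AMPK substrate gene, at 79.6 ± 23.9 and 90.9 ± 14.8 CPM.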

How the data were processed

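RNA was extracted with TRIzol and libraries were made with a nanopore cDNA-PCR kit, per the labels' protocols. The authors deposited raw counts per gene and per isoform for 6 libraries, per the file headers, with their own p-values and log2 fold changes, and DESeq2 is named there. DESeq 1.10.1 and GRCm38 appear in the submitters' processing notes, and the aligner is not given in the sources used here. CPM was computed from the counts and the library totals, and 12 other columns of values for single libraries were left out. Column letters tie libraries to groups. The numbers of the vehicle columns differ from those of the vehicle samples, and columns were matched to groups only. Tests were edgeR 4.0.16 in R 4.3.3 (filterByExpr, TMM, robust quasi-likelihood F test, group as the single term), run over the whole tables and tested on simulated data. SE was derived from the fold change and its F statistic. DESeq2 1.42.0 was an alternative. Depth was 5286426 counts or more per library. Positions and sequences are from GENCODE M21 on GRCm38, to which all 57 annotated isoforms were matched by identifier. Named genes were the 9 members, their 3 isoforms with the most counts or an unadjusted p under 0.05, and of each pathway list the 2 genes with the highest mean and those under that p, and the 3 nearest profiles of Calm2, Camk2a and Nrgn. The members and lists were chosen with earlier results of these data known. A result that the rule on named genes would give is not reported here.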

Additional observations from a re-analysis of the deposited data

How the results depend on the processing

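No paired analysis was possible because the table columns do not carry the replicate numbers of the labels. DESeq2 called 4 genes higher and 80 lower, and 1 isoform higher and 149 lower. With no filter on low counts, edgeR called 3 isoforms higher and 162 lower. Leaving out 1 library gave 0 to 2 genes higher, 0 to 41 lower, 0 to 2 isoforms higher and 0 to 176 lower, the highest values without C2, and 0 to 1 genes with changed usage. Usage gave 0 genes with a minimum total count of 10, against 1. None of the 9 genes or their tested isoforms was called by edgeR or DESeq2 in any of these fits. With 1 library left out, log2 fold changes changed sign for Calm2 (-0.27 to 0.044), Calm3 (-0.24 to 0.040), Camk2b (-0.20 to 0.035), Camk2g (-0.15 to 0.029), Camk4 (-0.14 to 0.14) and Calm2-201 (-0.32 to 0.016). The same held for Camk2n1 (-0.53 to 0.27), Pcp4 (-0.032 to 0.27), Akap5 (-0.35 to 0.10), Atp2b1 (-0.12 to 0.047), Atp2b2 (-0.017 to 0.49), Vsnl1 (-0.12 to 0.16), Ncald (-0.24 to 0.11), Syn1 (-0.19 to 0.011), Crtc1 (-0.25 to 0.016), Bdnf (-0.34 to 0.25) and Tsc2 (-0.035 to 0.38). Scaling by library totals moved Camk4 to 0.00094. The Calm2 share difference ranged from -0.439 to 0.935 percentage points. The cause was not tested. Of 36 log2 fold changes of the 9 genes under other settings with all libraries, 35 kept their sign.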
